A study of Mus musculus with 24 samples.

Results

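The genes described here are the keratins and keratin-associated proteins (Krtap) of the mouse, taken from a gene count table of subcutaneous bone implants. They are the genes whose symbol begins with Krt and a digit, or with Krtap, with pseudogene names dropped and with 10 or more reads summed over all 24 libraries. The table held 112 such genes, and 45 of them passed. They were divided by name into 27 epidermal keratins, 16 hair keratins (numbered 31 to 40 and 71 to 86) and 2 Krtap genes. The 67 genes left out were 3 epidermal keratins, 8 hair keratins and 56 Krtap genes, and 39 of these had no read in any library. Just inside the threshold lay Krt27, Krt82 and Krtap28-13 with 10 counts each, and just outside lay Krt35 with 9. Members were thus selected on their summed read counts, so that their expression as such is a description here.

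Keratins are the intermediate filament proteins of epithelial cells. A filament needs a type II and a type I partner, and the pair in use follows the kind of epithelium. Krt8 with Krt18 or Krt19 marks simple epithelia such as glands, ducts and mesothelium. Krt5 with Krt14 marks the basal layer of stratified epithelia and the myoepithelial cells of glands, whereas Krt1 with Krt10 marks the layers above it in the epidermis. Hair keratins and Krtap proteins build the hair shaft. Most type II genes lie in a cluster on chromosome 15 and most type I genes in a cluster on chromosome 11, which held 23 and 21 of the 45 genes. Krtap28-13 lay on chromosome 1.

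The implants were biphasic calcium phosphate (BCP) scaffolds in dorsal subcutaneous pockets of male and female Foxp3 DTR/eGFP mice, 8 to 9 weeks old, harvested after 2 weeks. In this strain the Foxp3 promoter drives the diphtheria toxin receptor and eGFP, so that toxin removes regulatory T cells (Treg). Each of the 6 groups had 4 libraries, each from 1 animal: scaffold alone (BCP), scaffold with bone marrow mesenchymal stromal cells of C57BL/6J mice (BCP+MSC), the same with resolvin E1-primed stromal cells, resolvin E1 being a pro-resolving lipid (BCP+MSC+RvE1), and the same with stromal cells cocultured with Treg (BCP+MSC+Treg). In the other two groups BCP+MSC was implanted in animals given intraperitoneal diphtheria toxin, without further treatment ((dep)BCP+MSC) or with daily local RvE1 injection ((dep)BCP+MSC+RvE1inj). RNA came from the whole construct, with seeded and host cells together, so that fewer cells of a type and less RNA per cell cannot be told apart. The only (dep)BCP+MSC libraries whose number could be matched to a label were replicates 1 and 2. The other two are called column 4 and column 5 after their table columns.

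Total counts ran from 8482701 to 144417743 per library, a 17.0-fold range, and 3 counts, the upper limit that a count of 0 allows, corresponded to 0.0223 to 0.299 CPM (counts scaled to 1000000 per library). These limits cover counting error only. (dep)BCP+MSC replicate 1 had the lowest total, and it stood apart from the other libraries in several keratins, as given below. Xist exceeded the Y-linked genes in 7 libraries. Foxp3, the gene that carries the toxin receptor, was at 0.378 to 1.69 CPM in (dep)BCP+MSC, 0.298 to 1.07 CPM in (dep)BCP+MSC+RvE1inj and 0.629 to 1.19 CPM in BCP+MSC, so the groups overlapped. In the toxin libraries these values rest on 4 to 83 counts. The paper reports Treg depletion by flow cytometry of lymph nodes and spleen, which Foxp3 RNA of the implants does not measure.

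Promoter sequence is shown for the simple pair Krt8 and Krt18, for the basal keratin Krt5 and for the suprabasal keratin Krt10, because the first 3 were high in the same libraries while Krt10 was not. Each run is the RefSeq sequence from 250 bases before to 50 bases after the gene start on GRCm38.p6, 5′ to 3′ on the gene's strand. Krt8 is from chr15:102004293-102004592 (minus strand), Krt18 from chr15:102027966-102028265 (plus strand), Krt5 from chr15:101712856-101713155 (minus strand) and Krt10 from chr11:99389315-99389614 (minus strand). Capitals mark matches to any of 4 motifs searched on both strands: the TATA box TATAAA, the GC box GGGCGG, the AP-1 site TGANTCA and the AP-2 site GCCNNNGGC.
Krt8: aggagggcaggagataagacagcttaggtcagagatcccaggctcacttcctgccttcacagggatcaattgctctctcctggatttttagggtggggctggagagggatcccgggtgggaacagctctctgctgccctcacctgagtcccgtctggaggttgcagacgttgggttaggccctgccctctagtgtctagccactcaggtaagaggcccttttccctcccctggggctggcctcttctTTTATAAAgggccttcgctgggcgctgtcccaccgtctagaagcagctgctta
Krt18: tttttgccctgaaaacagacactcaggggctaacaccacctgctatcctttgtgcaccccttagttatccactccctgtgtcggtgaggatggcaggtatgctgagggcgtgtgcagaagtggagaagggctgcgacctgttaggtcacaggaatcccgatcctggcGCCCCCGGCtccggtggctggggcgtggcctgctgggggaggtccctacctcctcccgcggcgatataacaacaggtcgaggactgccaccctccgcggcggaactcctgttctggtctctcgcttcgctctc
Krt5: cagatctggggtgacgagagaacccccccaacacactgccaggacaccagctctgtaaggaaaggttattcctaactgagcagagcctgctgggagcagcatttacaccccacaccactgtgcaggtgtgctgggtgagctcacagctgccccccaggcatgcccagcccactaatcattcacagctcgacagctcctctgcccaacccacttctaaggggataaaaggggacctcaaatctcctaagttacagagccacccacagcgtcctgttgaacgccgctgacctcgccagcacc
Krt10: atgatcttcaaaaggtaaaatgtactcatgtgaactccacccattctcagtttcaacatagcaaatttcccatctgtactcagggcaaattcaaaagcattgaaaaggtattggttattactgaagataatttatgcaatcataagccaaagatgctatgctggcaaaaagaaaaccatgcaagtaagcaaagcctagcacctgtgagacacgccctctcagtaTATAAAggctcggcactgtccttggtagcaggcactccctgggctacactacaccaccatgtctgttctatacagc

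In Krt8 the capitals are overlapping TATAAA matches, in Krt18 a GCCNNNGGC match and in Krt10 a TATAAA match, and the Krt5 window held none of the 4 motifs. Promoters were found for 31 of the 45 genes, with 32 windows in all since Krt13 had more than 1. TATAAA was present in 16 of these 32 windows (50%), against 13.6% of all 32851 promoters in the RefSeq table. GGGCGG was present in 2 (6.25%), against 35.7%. TGANTCA and GCCNNNGGC were each present in 4 (12.5%), against 7.81% and 16.6% of all promoters.

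Pooled over all libraries, the keratins with most reads were those of simple epithelia, not those of skin. Within the epidermal class Krt19 held 85708 counts over all libraries (32.2%), Krt8 held 65363 (24.6%) and Krt18 held 62617 (23.5%). With Krt7, another simple keratin, they made up 87.6% of the class. Per transcript length the order was Krt18 (mean 47.1 FPKM over the 24 libraries), Krt19 (42.9), Krt8 (35.3), Krt80 (8.5), Krt5 (5.45), Krt14 (3.81), Krt15 (3.76), Krt10 (3.71) and Krt7 (2.84), where FPKM is the CPM divided by exon length in kilobases. Without (dep)BCP+MSC replicate 1, Krt15 averaged 1.31 FPKM and Krt10 1.14 FPKM, below Krt7 at 2.88 FPKM. The pooled order did not hold in every library. In (dep)BCP+MSC replicate 1, Krt77 (168 CPM) and Krt10 (133 CPM) lay above Krt18 (111 CPM). In the 10 libraries with at most 1 count of Krt5, Krt80 was at 1.87 to 27.9 CPM and Krt19 at 1.08 to 10.1 CPM.

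The hair class did not consist mainly of hair shaft keratins. Krt80, a type II keratin of differentiating epithelium, held 70.6% of its counts, Krt79, known from the sebaceous duct, 9.6%, and Krt77, a suprabasal keratin, 7.6%. Of the 1877 counts of Krt77, 1685 came from (dep)BCP+MSC replicate 1, and without that library Krt77 held 0.862% of the class and Krt36 4.29%. The hair shaft keratins among the 16 (Krt31, Krt32, Krt36, Krt81, Krt82, Krt83, Krt84 and Krt86) summed to between 0.485 and 3.22 CPM in every library. The Krtap genes gave 29 counts for Krtap3-2 and 10 for Krtap28-13 in the whole series. Krt35 was below the count threshold and Krt85 was not analysed here. The class names therefore follow the gene symbols, and hair shaft RNA was scarce in all groups.

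Krt5 was either clearly present or near the detection limit, and libraries of both kinds occurred in 5 of the 6 groups. In BCP, Krt5 was at 33.4 CPM in replicate 1 and had no count in replicates 2, 3 and 4. In BCP+MSC it was at 3.74, 18.5, 3.16 and 0.0149 CPM in replicates 1 to 4. In BCP+MSC+RvE1 it was at 11.3 CPM in replicate 1 and had no count in the other replicates. Thus BCP and BCP+MSC+RvE1 each had 1 library with Krt5, and BCP+MSC had 3. In BCP+MSC+Treg Krt5 was at 19.8 and 3.64 CPM in replicates 1 and 2 and had no count in replicates 3 and 4. In (dep)BCP+MSC it was at 59.5 and 7.40 CPM in replicates 1 and 2 and at 6.40 and 40.8 CPM in columns 4 and 5. In (dep)BCP+MSC+RvE1inj it was at 20.1, 22.5 and 36.2 CPM in replicates 1, 3 and 4, with no count in replicate 2. Only (dep)BCP+MSC had Krt5 over 1 CPM in all 4 libraries.

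In total 14 libraries had Krt5 at 3.16 CPM or above and 10 had at most 1 count of it. The 14 were 7 of the 8 toxin libraries and 7 of the 16 without toxin. All 7 libraries with Xist above the Y-linked genes were among them, as were 7 of the 17 others. The libraries with Xist higher were BCP replicate 1, BCP+MSC replicates 1 to 3, BCP+MSC+Treg replicate 1 and (dep)BCP+MSC replicates 1 and 2. BCP+MSC+RvE1 and (dep)BCP+MSC+RvE1inj had no such library, so the groups differed in this respect. The part of the sex of the animals in these values was not tested.

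**Figure D1:**
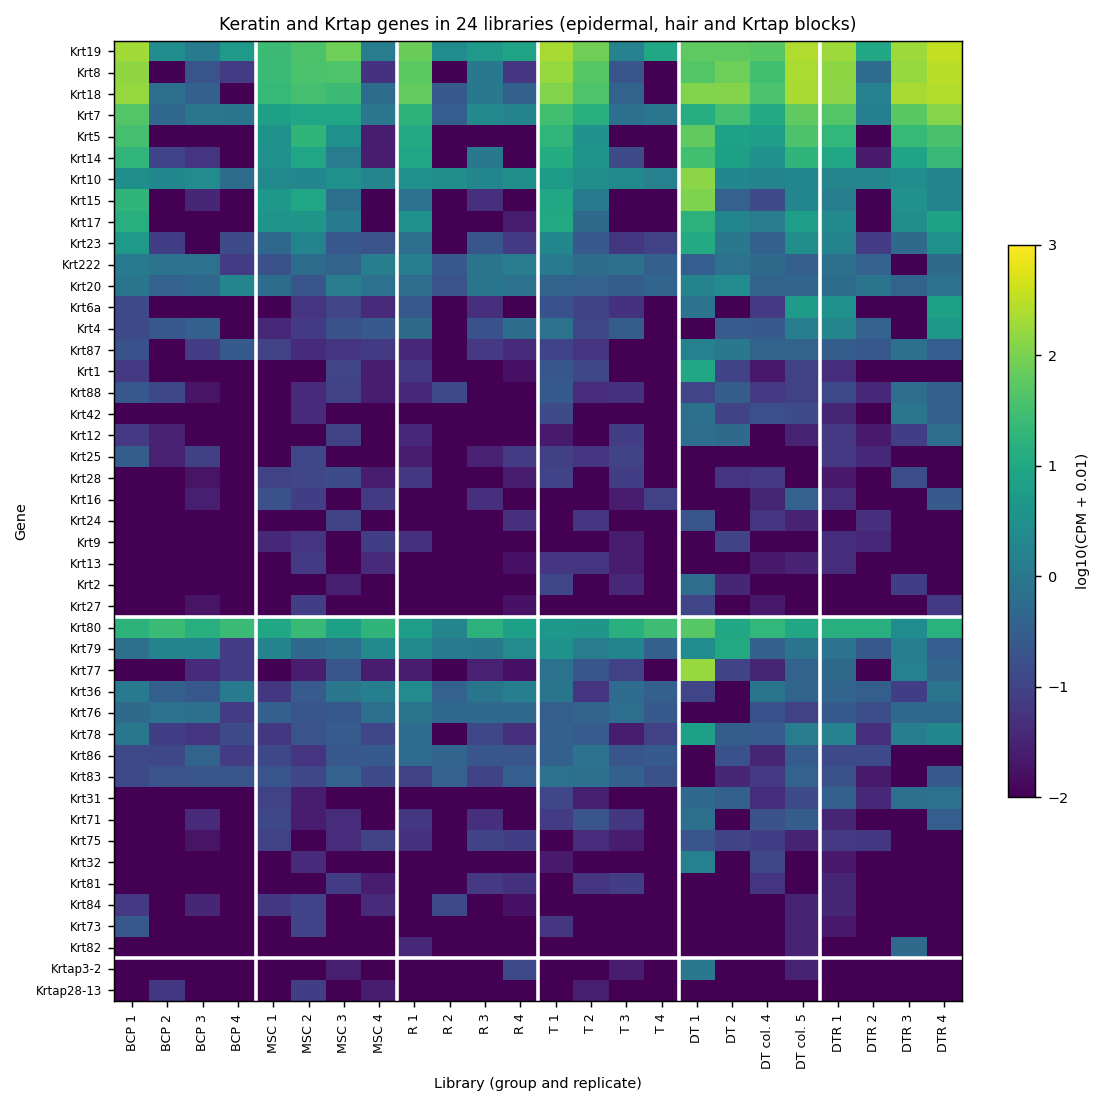
Expression of the 45 genes (rows, in blocks of epidermal keratins, hair keratins and Krtap) in the 24 libraries (columns, in blocks of 4 per group), as colour on the scale log10(CPM + 0.01). BCP is the scaffold alone, MSC is BCP+MSC, R is BCP+MSC+RvE1, T is BCP+MSC+Treg, DT is (dep)BCP+MSC and DTR is (dep)BCP+MSC+RvE1inj. Krt8 and Krt5 are bright in the same 14 libraries, while Krt10 and Krt80 are present in all 24.

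Krt8 showed the same libraries high. The BCP libraries, replicates 1 to 4, held 151, 0, 0.185 and 0.0629 CPM, the BCP+MSC libraries 25.2, 38.6, 41.6 and 0.0446, the BCP+MSC+Treg libraries 167, 49.3, 0.196 and 0 and the BCP+MSC+RvE1 libraries 55.7, 0, 1.04 and 0.0521. The (dep)BCP+MSC libraries held 45.0, 77.4, 30.7 and 231 CPM and the (dep)BCP+MSC+RvE1inj libraries 142, 0.538, 173 and 299. The 14 libraries with Krt5 were thus at 25.2 CPM or more, and none of the 10 others exceeded 1.04 CPM. When libraries were ordered by level, the same 14 ranked above the other 10 in 8 further genes, namely Krt7, Krt8, Krt14, Krt15, Krt17, Krt18, Krt19 and Krt23. With Krt5 itself this was 9 of the 45 genes (20%), against 0.37% of all 30564 genes examined. Because Krt5 defined the order, these are descriptions and were not tested.

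The gap between the sets was wide for Krt5, Krt8 and Krt18 and narrower for Krt19 and Krt7. Krt18, the type I partner of Krt8, was between 22.3 and 260 CPM in the 14 libraries and at most 1.57 CPM in the others. Krt19 was between 26.7 and 348 CPM in the 14, and it was still detected in each of the other 10, at 1.08 to 10.1 CPM. Krt7 was between 6.79 and 121 CPM in the 14 and between 0.301 and 2.29 CPM in the others.

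Krt14, the type I partner of Krt5, was between 1.31 and 30.3 CPM in the 14 libraries and at most 1.04 CPM in the others. Krt17, a keratin of the outer root sheath, of wounded epidermis and of basal cells in glands, was between 0.518 and 16.5 CPM in the 14 and at most 0.0149 CPM in the others. Krt15, a basal keratin also known from the hair follicle bulge, was between 0.129 and 106 CPM in the 14 and at most 0.0378 CPM in the others. Its spread among the 14 was therefore the widest of the basal keratins.

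Within the 14 libraries the partner genes rose together. The samples formed separate sets, so no relation was computed over all 24, and 10 relations were computed over the 14. On log2 CPM Krt5 and Krt14 had Pearson's r of 0.95 (permutation p = 1e-05, the smallest that 100000 permutations can give, adjusted p = 0.0001) and Spearman's rho of 0.92 (permutation p = 3e-05, adjusted p = 0.000133). Without the pair of libraries farthest from the median of Krt5 r was 0.95, and it was 0.94 within the 7 toxin libraries and within the 7 others. Krt8 and Krt18 had r of 0.92 (permutation p = 5e-05, adjusted p = 0.000167) and rho of 0.94 (permutation p = 1e-05, adjusted p = 0.0001), with r of 0.88 without the farthest pair, 0.92 within the toxin libraries and 0.96 within the others. Thus both type II and type I pairs held within each treatment set. Krt14 and Krt18, which belong to different pairs, had r of 0.77 (permutation p = 0.00112, adjusted p = 0.00224) and rho of 0.68 (permutation p = 0.00891, adjusted p = 0.0223), with r of 0.80 without the farthest pair, 0.63 within the toxin libraries and 0.82 within the others.

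The suprabasal genes followed another course. Krt1 and Krt10 had r of 0.94 (permutation p = 0.00069, adjusted p = 0.00172) and rho of 0.65 (permutation p = 0.0139, adjusted p = 0.0278), but r was 0.43 without the pair of libraries farthest from the median, so that the relation rests on those libraries. It was 0.63 without (dep)BCP+MSC replicate 1 alone, 0.96 within the toxin libraries and 0.89 within the others. Krt14 and Krt10 had r of 0.38 (permutation p = 0.161, adjusted p = 0.162) and rho of 0.08 (permutation p = 0.786, adjusted p = 0.786), with r of 0.06 without the farthest pair, 0.55 within the toxin libraries and 0.25 within the others. Krt6a and Krt16 had r of 0.52 (permutation p = 0.0521, adjusted p = 0.076) and rho of 0.35 (permutation p = 0.224, adjusted p = 0.249), with r of -0.15 without the farthest pair, 0.79 within the toxin libraries and -0.91 within the others. Krt16 had 47 counts in the whole series, so little can be read from that pair. The relations of Krt71 with Krt27, of Krt35 with Krt85 and of Krt14 with Krt35 were not computed, for want of counts or because a gene was not analysed here.

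The ratio of partners was steadier than their level. The ratio of Krt5 to Krt14, each per length, lay between 0.758 and 2.21 with a median of 1.40 in the 14 libraries, a 2.92-fold range. The ratio of Krt8 to Krt18 lay between 0.314 and 1.19 with a median of 0.804. The ratio of simple Krt8 to basal Krt5 had a median of 8.37 and lay between 2.54 and 16.4 in 13 libraries, whereas it was 0.915 in (dep)BCP+MSC replicate 1. That library was the only one of the 14 with more Krt5 than Krt8 per length.

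(dep)BCP+MSC replicate 1 also held nearly all of the suprabasal keratin signal above a common low level. Krt10 was at 133 CPM in this library, and at 2.07, 1.75 and 1.99 CPM in replicate 2 and columns 4 and 5 of the same group. In BCP+MSC it was at 2.35, 2.05, 3.19 and 1.87 CPM, and over the 23 other libraries it ranged from 0.567 to 5.31 CPM. Krt10 was thus detected in all 24 libraries, including all 10 without Krt5, which held up to 3.10 CPM. Krt77 was at 168 CPM in (dep)BCP+MSC replicate 1, at 0.0964, 0.0235 and 0.378 CPM in the rest of that group and at 0, 0.0153, 0.199 and 0.0149 CPM in BCP+MSC. Krt1 was at 10.1 CPM in replicate 1, at 0.0964, 0.0118 and 0.0840 CPM in the rest of its group and at 0, 0, 0.0993 and 0.0149 CPM in BCP+MSC. Krt15 was at 106 CPM in replicate 1, against 0.361, 0.129 and 1.93 CPM in the rest of its group.

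Markers of the cornified layer stood beside these keratins in the same library. Lor (loricrin, a main protein of the cornified envelope) was at 46.8 CPM in (dep)BCP+MSC replicate 1 and at most 0.373 CPM in the other libraries. Krtdap, a keratinocyte differentiation gene, was at 33.2 CPM there and at most 1.81 CPM elsewhere. The summed level of all 29 cornified envelope genes was 482 CPM in that library and 47.2 to 109 CPM in the 23 others, and none of the 29 was at 0 throughout. Filaggrin (Flg) reached 1.10 CPM there and had no count in 17 libraries. Krt1, Lor and Flg were thus at or near 0 in 23 of 24 libraries. Other genes of the cornified envelope list were present in every library, such as Sbsn (12.6 to 92.5 CPM), Asprv1 (6.12 to 48.4) and Tgm1 (3.90 to 17.6). Asprv1 was highest in BCP+MSC+RvE1 replicate 1 and Tgm1 in (dep)BCP+MSC column 5. The tissue that these reads came from was not tested. In the 10 libraries without Krt5 the simple keratins were low as well, with Krt8 at no more than 1.04 CPM.

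**Figure D2:**
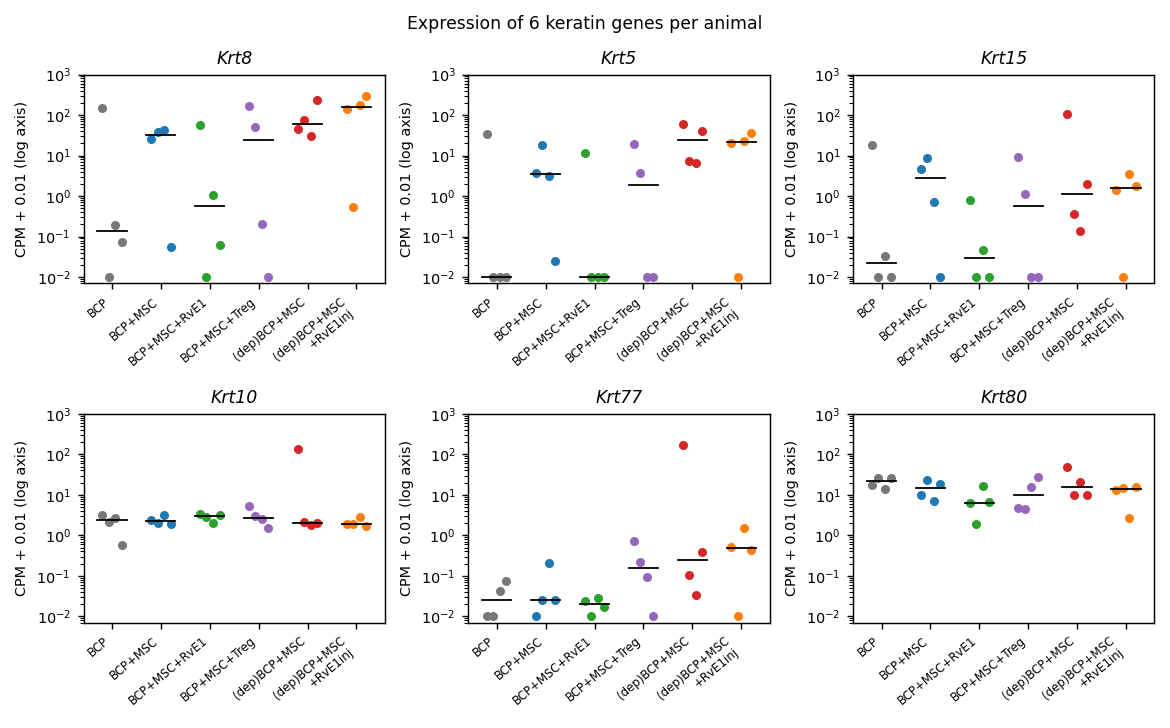
CPM plus 0.01 on a log axis for Krt8, Krt5, Krt15, Krt10, Krt77 and Krt80, with 1 point per animal, 4 per group, and the group median as a line. Krt8 and Krt5 are high in some animals and near 0 or at most 1.04 CPM (Krt8) in others of the same group, Krt10 and Krt77 are high in (dep)BCP+MSC replicate 1 alone (133 and 168 CPM), and Krt80 is present in every animal at 1.87 to 50 CPM.

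Genes of other epithelial lists moved with the simple keratins. Epcam, an adhesion molecule of epithelial cells, was between 9.70 and 140 CPM in the 14 libraries with Krt5 and at most 2.72 CPM in the others. Over the 14 libraries Krt8 and Epcam had r of 0.91 (permutation p = 2e-05, adjusted p = 0.0001) and rho of 0.92 (permutation p = 4e-05, adjusted p = 0.000133), with r of 0.87 without the farthest pair, 0.92 within the toxin libraries and 0.92 within the others. The same 14 libraries ranked highest in 6 of 23 keratinocyte genes (Col17a1, Dsp, Epcam, Esrp1, Lypd3 and Pkp1), in 3 of 12 genes of simple epithelium and mesothelium (Cldn3, Cldn7 and Elf3) and in 1 of 19 hair follicle genes (Msx2). They did so in none of the genes tested of the cornified envelope, sebaceous gland, melanocyte, skeletal muscle, adipocyte, macrophage and fibroblast lists.

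A list of 15 genes of milk and mammary epithelium, chosen after values were seen, followed the same libraries in 8 genes (Aqp5, Cited1, Csn3, Elf5, Foxa1, Pgr, Prlr and Wfdc18). Csn3, the milk protein kappa-casein, was between 3.54 and 161 CPM in the 14 libraries and at most 0.0378 CPM in the others. Prlr, the prolactin receptor, was between 5.07 and 160 CPM in the 14 and at most 2.38 CPM in the others. The summed level of the 15 genes ranged over 4.78 to 351 CPM in BCP, 7.50 to 108 in BCP+MSC, 3.08 to 203 in BCP+MSC+Treg, 6.36 to 146 in BCP+MSC+RvE1, 86.4 to 354 in (dep)BCP+MSC and 3.86 to 309 in (dep)BCP+MSC+RvE1inj. Wap, another milk protein gene, had no count in 19 libraries and at most 0.0743 CPM. Krt8 and Csn3 themselves had r of 0.40 within the 14 libraries (permutation p = 0.159, adjusted p = 0.162) and rho of 0.45 (permutation p = 0.113, adjusted p = 0.161), with r of 0.23 without the farthest pair, 0.22 within the toxin libraries and 0.13 within the others. The part of such cells in the keratin levels was not tested.

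**Figure D3:**
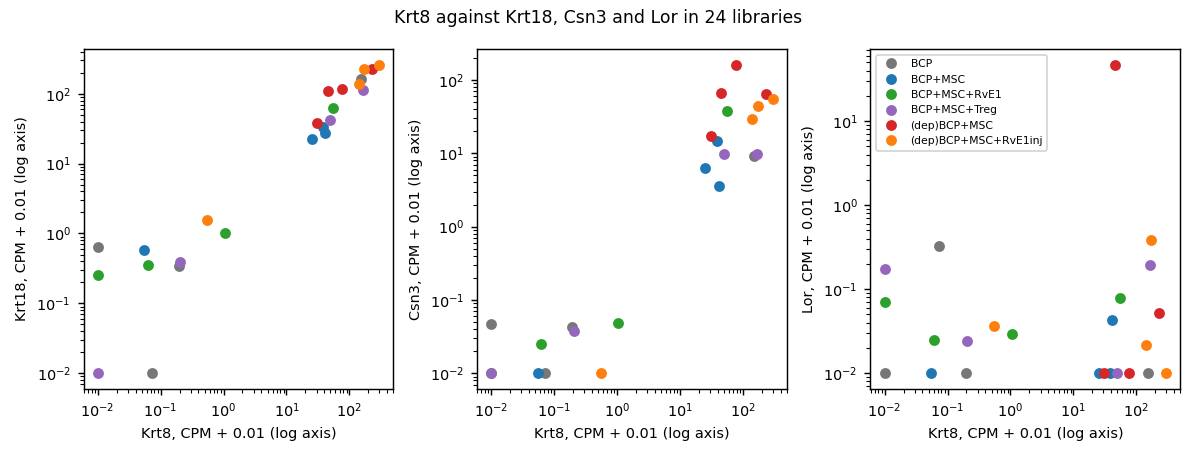
CPM plus 0.01 of Krt18, Csn3 and Lor against that of Krt8, on log axes, with 1 point per library coloured by group. Krt18 and Csn3 are high in the 14 libraries with Krt8 at 25.2 CPM or more, while Lor is high in 1 library, (dep)BCP+MSC replicate 1, at 46.8 CPM.

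Whether the groups differed was tested with edgeR's quasi-likelihood test over all 30564 genes, with a call at an adjusted p under 0.05 and a log2 fold change beyond 1. The p-values measure the spread between single animals. In 7 of the 8 comparisons edgeR called 0 of all 30564 genes (0%) in either direction, and so no keratin or Krtap gene. The absence of keratin calls there is therefore not particular to these genes. DESeq2 called no keratin or Krtap gene in them either. At an unadjusted p under 0.05 with the same fold, edgeR counts among the 45 genes were as follows. BCP+MSC against BCP had 4 higher (Krt9, Krt13, Krt28 and Krt75) and 0 lower, where 2.49% and 1.83% of all genes were so called. BCP+MSC+RvE1 against BCP had 2 higher (Krt75 and Krt81) and 1 lower (Krt73), with 5.36% and 3.18% of all genes. BCP+MSC+Treg against BCP had 3 higher (Krt13, Krt31 and Krt81) and 0 lower, with 3.77% and 2.09% of all genes. BCP+MSC+RvE1 against BCP+MSC had 0 higher and 1 lower (Krtap28-13), with 1.11% and 1.39% of all genes. BCP+MSC+Treg against BCP+MSC had 0 higher and 2 lower (Krt27 and Krt84), with 1.24% and 1.33%. BCP+MSC+Treg against BCP+MSC+RvE1 had 4 higher (Krt2, Krt13, Krt31 and Krt42) and 0 lower, with 1.18% and 1.04%. All these genes were at 0.233 CPM or below in each of the 16 libraries without toxin, and none of the keratins with high counts was among them.

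The lead simple and basal keratins did not differ between the groups without toxin beyond the spread of their animals. Krt8 averaged 37.7 ± 75.3 CPM (SD, n = 4) in BCP, 26.4 ± 18.9 in BCP+MSC, 54.2 ± 78.8 in BCP+MSC+Treg and 14.2 ± 27.7 in BCP+MSC+RvE1. Its log2 fold change against BCP was -0.51 ± 2.29 (SE) for BCP+MSC (edgeR adjusted p = 1, exact permutation p = 0.457), -1.39 ± 2.33 for BCP+MSC+RvE1 (edgeR adjusted p = 0.790, exact permutation p = 1) and 0.53 ± 2.29 for BCP+MSC+Treg (edgeR adjusted p = 0.958, exact permutation p = 0.629). Each of these values turned on 1 animal: without BCP replicate 1 the first became 7.93 and the second 7.07, and without BCP+MSC+Treg replicate 1 the third became -1.17. The smallest p that the exact test can give with 4 against 4 is 0.0286.

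Krt28, an inner root sheath keratin, was the only gene of the 45 whose values in BCP+MSC (0.0818, 0.107, 0.132 and 0.0149 CPM) all lay above those in BCP (0, 0, 0.00803 and 0 CPM), against 1.25% of all genes that were so placed. Its log2 fold change was 3.81 ± 1.51 (edgeR adjusted p = 0.888, exact permutation p = 0.0286). The gene had 48 counts in the series.

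Krt80 did not follow Krt8 or Krt5. The BCP libraries held 17.1, 25.7, 13.6 and 25.7 CPM, the BCP+MSC libraries 9.85, 23.6, 6.93 and 19.0, the BCP+MSC+Treg libraries 4.73, 4.52, 15.2 and 27.9 and the BCP+MSC+RvE1 libraries 6.16, 1.87, 16.6 and 6.54. The (dep)BCP+MSC libraries held 50, 9.76, 20.6 and 9.87 CPM and the (dep)BCP+MSC+RvE1inj libraries 13.4, 14.5, 2.69 and 15.9. Libraries without Krt5 were at 1.87 to 27.9 CPM of Krt80 and libraries with it at 2.69 to 50 CPM. In BCP+MSC+RvE1 against BCP it averaged 7.80 ± 6.25 against 20.5 ± 6.16 CPM (log2 fold change -1.39 ± 0.70, edgeR adjusted p = 0.336, exact permutation p = 0.0571) and did not pass.

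Only (dep)BCP+MSC against BCP+MSC had adjusted calls with edgeR, among the keratins and among all genes alike. In (dep)BCP+MSC against BCP+MSC, 4 of the 45 genes (8.89%) were called higher and 0 lower, where 1.34% of all genes were called higher and 1.80% lower. The 4 were Krt1, Krt10, Krt77 and Krt87. At an unadjusted p 12 were higher and 2 (Krt25 and Krt76) lower, where 6.65% of all genes were higher and 6.53% lower. The median log2 fold change of the 45 genes was 1.84, against -0.04 for all genes tested, with 31 of 45 above 0. It was 1.96 over the epidermal keratins and 0.67 over the hair keratins. Without (dep)BCP+MSC replicate 1 the median was 0.72 over the 44 genes then tested, with 28 above 0, and it was 1.05 over the epidermal and 0.11 over the hair keratins.

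For 3 of the 4 genes the call rested on replicate 1. Krt10 averaged 34.7 ± 65.5 CPM in (dep)BCP+MSC and 2.36 ± 0.587 CPM in BCP+MSC, with a log2 fold change of 3.86 ± 1.07 (edgeR adjusted p = 0.0476, exact permutation p = 0.886). Without replicate 1 it was -0.30 (edgeR adjusted p = 0.805). Krt77 averaged 42.1 ± 83.9 against 0.0572 ± 0.0946 CPM, with a log2 fold change of 9.39 ± 2.35 (edgeR adjusted p = 0.0304, exact permutation p = 0.171) that became 1.42 without it (edgeR adjusted p = 0.647). Krt1 averaged 2.57 ± 5.00 against 0.0285 ± 0.0477 CPM, with 6.26 ± 1.75 (edgeR adjusted p = 0.0458, exact permutation p = 0.200) that became 1.00 (edgeR adjusted p = 0.804). In each of these genes the ranges of the groups overlapped, and each call was also lost when any single BCP+MSC library was left out (edgeR adjusted p from 0.0583 to 0.121). Of 25 cornified envelope genes tested, 5 were called higher in this comparison (Alox12b, Aloxe3, Klk7, Krtdap and Lor), and 0 without replicate 1.

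Krt87, a type II keratin in the chromosome 15 cluster, was the call that did not rest on replicate 1 alone. It was at 1.60, 1.06, 0.388 and 0.378 CPM in (dep)BCP+MSC and at 0.0818, 0.0305, 0.0497 and 0.0594 CPM in BCP+MSC, so that the groups did not overlap, as was the case for 4.64% of all genes in this direction. The means were 0.855 ± 0.587 and 0.0554 ± 0.0213 CPM, the log2 fold change was 3.88 ± 0.91 and the edgeR adjusted p was 0.0161 (exact permutation p = 0.0286, the smallest possible). Without replicate 1 the log2 fold change was 3.42 (edgeR adjusted p = 0.0608), so that the value stayed near and the call was lost. The call was lost as narrowly without BCP+MSC replicate 2, BCP+MSC replicate 3 or (dep)BCP+MSC replicate 2 (edgeR adjusted p = 0.0517, 0.0514 and 0.0526). It was at 0.292, 0.215, 0.672 and 0.296 CPM in (dep)BCP+MSC+RvE1inj and at most 0.252 CPM in the 16 libraries without toxin. Krt87 had 212 counts in all. DESeq2 called Krt87, Krt76 and Krt78 in this comparison and gave no adjusted p for Krt1, Krt10 and Krt77.

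The simple keratins were higher on average in (dep)BCP+MSC than in BCP+MSC but did not pass the test. Krt8 averaged 96.1 ± 92.3 against 26.4 ± 18.9 CPM (log2 fold change 1.87 ± 2.36, edgeR adjusted p = 0.710, exact permutation p = 0.114). Krt18 averaged 123 ± 76.7 against 20.9 ± 14.3 CPM (2.55 ± 2.16, edgeR adjusted p = 0.545, exact permutation p = 0.0286), and Krt7 averaged 29.6 ± 23.3 against 6.36 ± 3.75 CPM (2.22 ± 1.54, edgeR adjusted p = 0.441, exact permutation p = 0.0286). Krt18 and Krt7 did not overlap between the groups. With Krt87 and Krt42 they were the 4 genes of the 45 that did not overlap in this direction (8.89%, against 4.64% of all genes). BCP+MSC replicate 4 had 0.0446 CPM of Krt8, 0.564 CPM of Krt18 and 0.936 CPM of Krt7.

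Among basal and wound keratins none passed. Krt5 averaged 28.5 ± 26.1 against 6.35 ± 8.25 CPM (log2 fold change 2.16 ± 2.39, edgeR adjusted p = 0.663, exact permutation p = 0.143). Krt14 averaged 14.8 ± 12.1 against 3.42 ± 3.99 CPM (2.10 ± 2.08, edgeR adjusted p = 0.615, exact permutation p = 0.114). Krt15 had 2.92 ± 2.40 (edgeR adjusted p = 0.530, exact permutation p = 0.714), which became -2.13 without replicate 1. Krt6a, induced in wounded epidermis, was at 0.798, 0, 0.0588 and 5.73 CPM in (dep)BCP+MSC and at 0, 0.0458, 0.0993 and 0.0297 CPM in BCP+MSC, so that the groups overlapped and 1 library held most of it (5.11 ± 1.90, edgeR adjusted p = 0.135, exact permutation p = 0.286).

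Krt42 and Krt76 did not overlap between the groups but missed the adjusted threshold. Krt42, a type I keratin, was at 0.698, 0.0964, 0.153 and 0.126 CPM in (dep)BCP+MSC and at 0, 0.0305, 0 and 0 CPM in BCP+MSC (log2 fold change 4.51 ± 1.71, edgeR adjusted p = 0.145, exact permutation p = 0.0286). Krt76, known from the palate, was the only gene of the 45 placed wholly lower (2.22%, against 4.93% of all genes). It was at 0, 0, 0.176 and 0.0840 CPM in (dep)BCP+MSC and at 0.327, 0.198, 0.232 and 0.698 CPM in BCP+MSC (-2.13 ± 0.75, edgeR adjusted p = 0.111, exact permutation p = 0.0286), and DESeq2 called it lower (adjusted p = 0.0322).

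**Figure D4:**
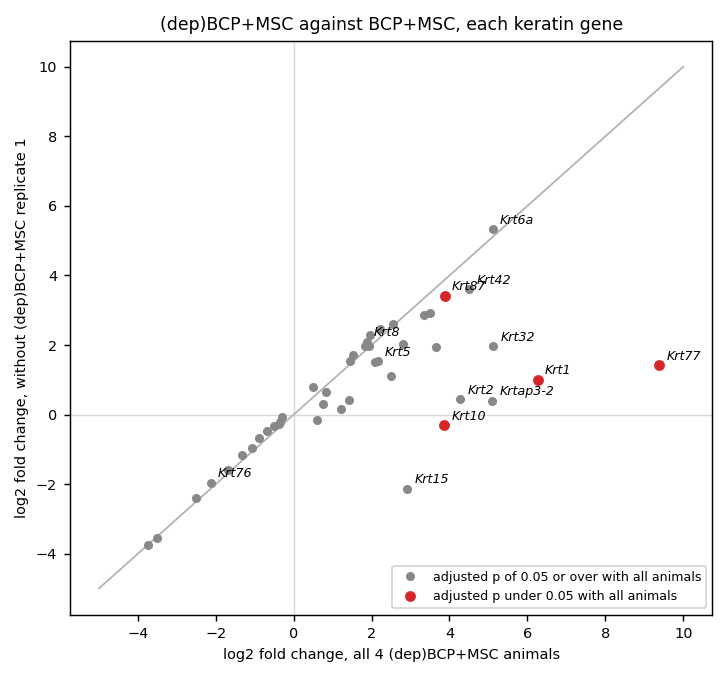
Log2 fold change of each gene in (dep)BCP+MSC against BCP+MSC with all 4 toxin libraries (horizontal axis) and without (dep)BCP+MSC replicate 1 (vertical axis), with the line of equal values. The 4 genes called with all animals are red: Krt77, Krt1 and Krt10 fall to 1.42, 1.00 and -0.30, while Krt87 stays near the line at 3.42.

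Local RvE1 injection in toxin-treated animals gave no call. In (dep)BCP+MSC+RvE1inj against (dep)BCP+MSC, 0 of the 45 genes passed the adjusted threshold, as did 0 of all genes. At an unadjusted p 2 were higher (Krt25 and Krt76) and 6 lower (Krt1, Krt10, Krt32, Krt77, Krt79 and Krtap3-2), where 2.62% of all genes were higher and 2.50% lower. Both toxin comparisons share the (dep)BCP+MSC libraries. In (dep)BCP+MSC+RvE1inj, the other toxin group, Krt10 was at 1.72 to 2.76 CPM, Krt1 at 0 to 0.035 CPM and Krt77 at 0 to 1.49 CPM. Krt10 had a log2 fold change of -4.07 ± 1.09 (edgeR adjusted p = 0.668, exact permutation p = 0.543), which became 0.08 without (dep)BCP+MSC replicate 1, and Krt77 one of -6.28 ± 2.03 (edgeR adjusted p = 0.668, exact permutation p = 0.800), which became 1.78. Krt8 averaged 154 ± 123 against 96.1 ± 92.3 CPM (0.67 ± 2.29, edgeR adjusted p = 0.963, exact permutation p = 0.943).

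Hair shaft and inner root sheath keratins remained low with and without toxin. Krt36, a type I hair keratin, had most counts among them (958) and ranged from 0 to 2.57 CPM over all libraries, highest in BCP+MSC+RvE1 replicate 1. Krt31 was at 0.498, 0.337, 0.0353 and 0.126 CPM in (dep)BCP+MSC and at 0.0818, 0.0153, 0 and 0 CPM in BCP+MSC (log2 fold change 3.35 ± 1.35, edgeR adjusted p = 0.171, exact permutation p = 0.0571). Krt86 and Krt83 stayed under 0.80 CPM in every library. Krt25, Krt27 and Krt71 of the inner root sheath had 57, 10 and 80 counts in the series, and Krtap3-2 had 16 of its 29 counts in BCP+MSC+RvE1 replicate 4 (0.119 CPM) and 10 in the shallower (dep)BCP+MSC replicate 1 (0.997 CPM). Krt79 ranged from 0.0629 to 10.7 CPM, highest in (dep)BCP+MSC replicate 2. Krt2, a late suprabasal keratin, was at 0.598 CPM in (dep)BCP+MSC replicate 1 and at most 0.105 CPM elsewhere.

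Summed levels show how far the animals of a group lay apart. The epidermal keratins together ranged from 6.95 to 663 CPM in BCP (median 8.31), 7.48 to 168 in BCP+MSC (median 134), 7.19 to 594 in BCP+MSC+Treg (median 108) and 6.62 to 242 in BCP+MSC+RvE1 (median 15.4). They ranged from 146 to 852 CPM in (dep)BCP+MSC (median 455) and from 17.5 to 1120 in (dep)BCP+MSC+RvE1inj (median 616). The hair keratins together ranged from 4.81 to 29.3 CPM in the 23 libraries other than (dep)BCP+MSC replicate 1, which was at 230 CPM. In (dep)BCP+MSC against BCP+MSC, where 1.34% of all genes were called higher and 1.80% lower, 6 of 10 fibroblast genes were called lower (Col1a2, Dpt, Fbln1, Lum, Postn and Thy1). Of 19 hair follicle genes tested 1 was called lower (S100a3), and of 15 mammary genes 1 was called higher (Csn2, at 34.9 CPM in (dep)BCP+MSC replicate 2), a call that was lost without replicate 1. None of the keratinocyte, simple epithelium, sebaceous, melanocyte, skeletal muscle, adipocyte and macrophage genes was called. Their part in the keratin values was not tested.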

How the data were processed

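RNA of subcutaneous implants (4 libraries in each of 6 groups) was made into stranded mRNA libraries and sequenced as read pairs. The authors deposited 1 table of raw counts per gene for the whole series. Per the file headers it was made with featureCounts 1.5.2 on exons of GENCODE M13, counting read pairs with no strand setting, and HISAT2 2.0.5 is named in the submitters' processing notes. Reads of a gene and an overlapping antisense gene therefore cannot be told apart (Krt5, Krt7, Krt8, Krt10 and Krt80 among others, by GENCODE M21), and near-identical copies such as the hair keratins and Krtap genes are uncertain. The header names 4 further libraries, not analysed here. Gene symbols were matched for 50376 of 51138 identifiers. The members and lists were chosen with earlier results of these data known.

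Genes with 10 or more counts over all libraries (30564) were fitted with edgeR 4.0.16 (R 4.3.3) in 1 model of 6 groups, with TMM scaling, the robust quasi-likelihood test and Benjamini-Hochberg adjustment over all of them. CPM uses the TMM library sizes, and FPKM divides CPM by the exon length given in the table. A prior count of 2 was used for log2 CPM, not for log2 fold changes. Those of genes near the detection limit were therefore not held down by it. Krt25 had no count in (dep)BCP+MSC and averaged 0.0267 CPM in BCP+MSC, and its log2 fold change was -3.74. The SE of a log2 fold change is derived from the test statistic. Single genes were also compared with an exact two-sided permutation test over the 70 arrangements of 4 against 4 on log2 CPM. Relations over libraries used 100000 two-sided permutations. Genes were named by a rule: those of a fixed role list, the 3 with most counts in each class, every gene past the adjusted threshold and, per comparison and direction, the 2 with the smallest p among those whose groups did not overlap. Others named were chosen after their values were seen. Depth is given with the results. On simulated counts for (dep)BCP+MSC against BCP+MSC with 200 of 29908 genes changed by a log2 fold change of 3, edgeR called 193 of them and 4 unchanged genes. The changed genes were drawn from those with high counts, and all genes were given the same spread between animals. These rates were thus not shown to hold for keratins with few counts or with single high libraries.

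Alternatives were RLE scaling, edgeR's expression filter, no filter, the groups compared alone, the replicate number as a block, DESeq2 1.42.0 and leaving out each library. The libraries of a number were not shown to be paired. The cell type lists covered cornified envelope, keratinocyte, hair follicle, sebaceous gland, melanocyte, simple epithelium and mesothelium, skeletal muscle, adipocyte, macrophage and fibroblast genes, with a mammary list added after values were seen.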

Additional observations from a re-analysis of the deposited data

Results flagged for a closer look

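Each group of 4 libraries was examined for a library standing apart from the rest by Dixon's criterion, for 14 measures in 6 groups (84 examined). There were 26 such cases. The rate of about 1 in 20 by chance holds for normally distributed values, whereas these were CPM values at or near 0 in many libraries. An excess over chance can therefore not be read from the count, and the measures are not independent of each other. In BCP, replicate 1 stood above the rest in the summed epidermal keratins (663 CPM, next 8.81), Krt8 (151, next 0.185), Krt18 (165, next 0.621), Krt19 (205, next 5.04), Krt7 (45.5, next 0.907), Krt5 (33.4, next 0), Krt14 (19.4, next 0.0914), Krt15 (18.7, next 0.0241) and Krt17 (13.8, next 0). In BCP+MSC+RvE1, replicate 1 stood above the rest in the summed epidermal keratins (242 CPM, next 16.2), Krt8 (55.7, next 1.04), Krt18 (62.3, next 1.02), Krt19 (74.9, next 8.21), Krt7 (16.9, next 2.29), Krt5 (11.3, next 0), Krt14 (9.14, next 1.04), Krt15 (0.775, next 0.0378) and Krt17 (3.65, next 0.0149).

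In (dep)BCP+MSC, replicate 1 stood above the rest in the summed hair keratins (230 CPM, next 22.8), Krt10 (133, next 2.07), Krt77 (168, next 0.378) and Krt15 (106, next 1.93), and column 5 did so in Krt19 (254, next 58.2). In BCP+MSC+Treg, replicate 1 stood above the rest in Krt15 (9.41 CPM, next 1.13) and Krt17 (10.8, next 0.518), and in BCP+MSC replicate 3 did so in Krt77 (0.199 CPM, next 0.0153). No library of (dep)BCP+MSC+RvE1inj was picked out in these measures.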

How the results depend on the processing

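The mean of the hair keratins without Krt80 was 3.05 CPM in BCP, 3.16 in BCP+MSC, 4.51 in BCP+MSC+RvE1, 4.11 in BCP+MSC+Treg and 4.17 in (dep)BCP+MSC+RvE1inj, since Krt80 leads that class. In (dep)BCP+MSC that mean was 49.6 ± 87.2 CPM (SD), with a median of 7.92 and a range of 2.18 to 180 CPM. When 1 library was left out, r was 0.32 to 0.72 for Krt6a and Krt16, -0.09 to 0.48 for Krt14 and Krt10 (negative without (dep)BCP+MSC replicate 1) and 0.26 to 0.56 for Krt8 and Bglap3. Counts of genes called, in either direction and at either p, were compared with the main fit under each setting other than leaving out a library. They moved more than 1.5 times, or to or from 0, in 29 cases and did not in 67. Those given next are unadjusted counts that moved, and the cause was not tested. With edgeR's expression filter, which tests fewer genes, they were 0 in all comparisons against BCP, 0 for both primed groups against BCP+MSC, 1 in BCP+MSC+Treg against BCP+MSC+RvE1, 8 in (dep)BCP+MSC against BCP+MSC and 4 in (dep)BCP+MSC+RvE1inj against (dep)BCP+MSC. With DESeq2 they were 1 in BCP+MSC against BCP, 0 in BCP+MSC+Treg against BCP, 0, 0 and 0 in the comparisons among the other groups without toxin, 7 in (dep)BCP+MSC against BCP+MSC and 2 in (dep)BCP+MSC+RvE1inj against (dep)BCP+MSC. With only the groups compared they were 1 in BCP+MSC against BCP, 0 in BCP+MSC+RvE1 against BCP+MSC, 1 in BCP+MSC+Treg against BCP+MSC, 2 in BCP+MSC+Treg against BCP+MSC+RvE1 and 5 in (dep)BCP+MSC+RvE1inj against (dep)BCP+MSC. In BCP+MSC+Treg against BCP+MSC they were 1 with RLE scaling and 1 with no filter. At the adjusted p, (dep)BCP+MSC against BCP+MSC gave 3 genes (Krt10, Krt77 and Krt87) with the expression filter, under which Krt1 was not tested, 2 (Krt77 and Krt87) with no filter and 1 (Krt87) with only the groups compared. Over all genes this comparison had 959 calls, 1845 with DESeq2, 2149 with the block, 422 without (dep)BCP+MSC replicate 1 and 429 without replicate 2.

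Over all genes, deviations of same-numbered libraries from their group means had r from -0.45 to 0.34 over 50 pairs, 10 of them over 0.1. Whether the number stands for more than a label was not tested further. Krt5 was at 3.74 CPM or above in replicate 1 of every group. It was at most 0.0149 CPM in replicate 4 of each group without toxin, but at 36.2 CPM in replicate 4 of (dep)BCP+MSC+RvE1inj. With the replicate block, which drops (dep)BCP+MSC columns 4 and 5, unadjusted calls were 2 in BCP+MSC against BCP, 1 in BCP+MSC+RvE1 against BCP, 5 in BCP+MSC+Treg against BCP and 1 in BCP+MSC+Treg against BCP+MSC, and 2 genes passed the adjusted threshold in (dep)BCP+MSC+RvE1inj against (dep)BCP+MSC. The block reversed the log2 fold change of Krt5 in (dep)BCP+MSC against BCP+MSC (-1.04) and of Krt8 in BCP+MSC against BCP (3.36) and in BCP+MSC+Treg against BCP+MSC (-1.19). The adjusted p of Krt1 in (dep)BCP+MSC against BCP+MSC was then 0.0969, and Krt10, Krt12, Krt76, Krt77 and Krt87 were called (5 genes).

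When 1 library was left out in turn, the adjusted calls in (dep)BCP+MSC against BCP+MSC were 0 to 5, with 0 without (dep)BCP+MSC replicate 1, without BCP+MSC replicate 2 and without BCP+MSC replicate 3. The unadjusted calls were 5 to 15 in (dep)BCP+MSC against BCP+MSC, 3 to 9 in (dep)BCP+MSC+RvE1inj against (dep)BCP+MSC, 1 to 12 in BCP+MSC against BCP, 1 to 5 in BCP+MSC+RvE1 against BCP, 0 to 3 in BCP+MSC+RvE1 against BCP+MSC, 2 to 10 in BCP+MSC+Treg against BCP, 1 to 2 in BCP+MSC+Treg against BCP+MSC and 0 to 6 in BCP+MSC+Treg against BCP+MSC+RvE1. Log2 fold changes ranged from -0.30 to 4.31 for Krt10 in (dep)BCP+MSC against BCP+MSC and, in (dep)BCP+MSC+RvE1inj against (dep)BCP+MSC, from -4.49 to 0.08 for Krt10 and from -7.13 to 1.78 for Krt77. For Krt8 they ranged from -0.95 to 7.93 in BCP+MSC against BCP, from -6.58 to 7.07 in BCP+MSC+RvE1 against BCP, from -1.17 to 8.99 in BCP+MSC+Treg against BCP and from -0.66 to 1.46 in BCP+MSC+Treg against BCP+MSC, where BCP replicate 1 or BCP+MSC+Treg replicate 1 turned the sign. The within-set relations and the run without (dep)BCP+MSC replicate 1 as a whole were chosen after seeing the data. A gene of 10 to 60 counts in the series carries too few reads for its level in any library to be read.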

Other observations

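Areg and Bglap3 reached higher values in the 14 libraries with Krt5 than in the others, but within the 14 neither relation with Krt8 passed. Areg, which encodes the growth factor amphiregulin, was between 0.385 and 21.3 CPM in the 14 libraries with Krt5 and at most 1.47 CPM in the others. Its highest value was in BCP+MSC+Treg replicate 1, closely followed by BCP replicate 1 at 20.9 CPM. Replicates 2, 3 and 4 of BCP+MSC+Treg had 150, 20 and 2 counts of Areg. The ranges of the sets overlapped. Over the 14 libraries Krt8 and Areg had r of 0.53 (permutation p = 0.0532, adjusted p = 0.076) and rho of 0.52 (permutation p = 0.0617, adjusted p = 0.103), with r of 0.39 without the farthest pair.

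Bglap3, a relative of the osteocalcin genes, was between 0.218 and 4.09 CPM in the 14 libraries and at most 0.0420 CPM in the other 10. Krt8 and Bglap3 had r of 0.39 (permutation p = 0.162, adjusted p = 0.162) and rho of 0.41 (permutation p = 0.147, adjusted p = 0.184), with r of 0.30 without the farthest pair, -0.38 within the toxin libraries and 0.72 within the 7 others. Upk3b, a mesothelial gene, did not follow the keratins: replicate 2 of BCP+MSC+Treg held 13.1 CPM and it reached 11.4 CPM in a library without Krt5.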
